A study of Mus musculus with 6 samples.

Results

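Cxcl12, Cxcr4 and Ackr3 are a chemokine, its signalling receptor and its scavenging receptor, 3 of the 32285 genes counted in single cells of the mouse cardiogenic region at embryonic stage E10.5. They were taken by gene symbol, and each symbol matched 1 gene in the count matrix and 1 protein-coding gene of the GENCODE M21 annotation. On GRCm38, Cxcl12 (ENSMUSG00000061353) lies on the plus strand at chr6:117168535-117181367 with 4 annotated transcripts, Cxcr4 (ENSMUSG00000045382) on the minus strand at chr1:128588199-128592293 with 2 exons, and Ackr3 (ENSMUSG00000044337) on the plus strand at chr1:90203980-90216751 with 2 exons. Droplet 3' single-cell RNA sequencing counts unique molecular identifiers (UMIs), 1 per captured RNA molecule, summed over a gene.

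All embryos were wild type C57BL/6. The study had 3 samples from vehicle (Veh)-pretreated females with normal glycemia and 3 from females made hyperglycemic by pretreatment with streptozotocin (STZ), a toxin of pancreatic beta cells; males in both groups had normal glycemia. The counts came as 1 matrix of 53362 barcodes whose numbered endings mark 6 libraries, and the sources used here do not pair these endings with samples. The STZ and Veh groups were therefore not compared, and the libraries are given side by side under their numbers, without a group and without a test.

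Cxcl12 (SDF-1) is a secreted chemokine that binds Cxcr4, a G-protein-coupled receptor that drives migration and survival, and Ackr3 (Cxcr7), an atypical receptor that takes the ligand up for degradation and does not signal through G proteins in the usual way. In the embryo the ligand commonly comes from mesenchyme and mural cells, while receptor-bearing muscle precursors, endothelial cells and other migrating cells follow its gradient, which the scavenger shapes. In mice, loss of the ligand or of Cxcr4 is known to disturb ventricular septation and coronary artery growth, and loss of Ackr3 is known to disturb the valves.

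In all, 35962 barcodes (67.4%) had at least 2500 genes and at most 10% mitochondrial UMIs, between 4903 and 7136 per library, with a median of 30533 to 35634 UMIs. They held 85004 Cxcl12, 3052 Cxcr4 and 16678 Ackr3 UMIs. Cells were sorted into 18 classes by how many of a list of marker genes had at least 1 UMI; the 3 genes were in no list. Each class is called by its gate and means cells that are "like" that type, since no annotation by the authors was used. A cell needed 6 of 8 markers for the smooth muscle-like, endothelium-like and cushion mesenchyme-like gates and 3 of 9 for the branchiomeric muscle-like gate, so these markers define the classes and are no check of them. Some markers crossed classes: cushion mesenchyme had a median of 3 of 8 endothelial markers (ungated 1) and endothelium 4 of 8 cushion markers (ungated 2). No gate took 11850 cells (33.0%), and 2220 passed more than 1 gate and were left out of the classes. Levels are CPM (a gene's UMIs as a share of all UMIs in the cells, in parts per 1000000) with an exact 95% Poisson interval, which covers counting error only. A library is printed where it had at least 20 cells of a class.

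Over all kept cells the level of Cxcl12 was 64.6, 63.9, 53.7, 70.0, 67.6 and 68.3 CPM in libraries 1 to 6. Cxcr4 stood at 2.12, 2.21, 1.82, 2.34, 2.47 and 2.96 CPM, and Ackr3 at 10.6, 11.7, 12.2, 13.7, 15.5 and 12.5 CPM. Library 3 was lowest for Cxcl12 and Cxcr4, and library 1 was lowest for Ackr3. Of 49236 barcode sequences, 2777 occurred in more than 1 library, mostly among libraries 4, 5 and 6, which shared 1003 to 1597 by pair while other pairs shared 66 to 374. Shared sequences were carried by 2890 kept cells (8.04%), and among 57 pairs with both cells in a class, 10 were in the same class. Cells with a shared sequence had 38.3 CPM of Cxcl12 against 69.3 CPM in the others, 2.13 against 2.36 CPM of Cxcr4, and 11.5 against 12.9 CPM of Ackr3.

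Each of the 3 genes was highest in a different class. Cxcl12 led in smooth muscle, Cxcr4 in branchiomeric muscle and Ackr3 in cushion mesenchyme. None of the 3 was at least 2-fold above its next class, a lead that 16.5% of 12127 genes of at least 10 CPM in some class had; the closest was Cxcl12, at 1.997-fold. That call depended on the setting, since the Cxcl12 ratio was 2.71 by the mean of library values, 2.42 with 1 marker more per gate and up to 2.41 with 1 library left out. Along the order of the 18 classes, the interval of the ratio of neighbours held 1 in 6 of 17 steps for Cxcl12, 12 of 17 for Cxcr4 and 11 of 17 for Ackr3. The libraries could be compared in 13, 14 and 14 of these steps, and the ranges of neighbours were apart in 2, 1 and 0 of them. Some neighbours with overlapping ranges still kept 1 order in 6 of 6 libraries, such as endoderm over cushion mesenchyme for Cxcr4 and cushion mesenchyme over endothelium for Ackr3.

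**Figure D1:**
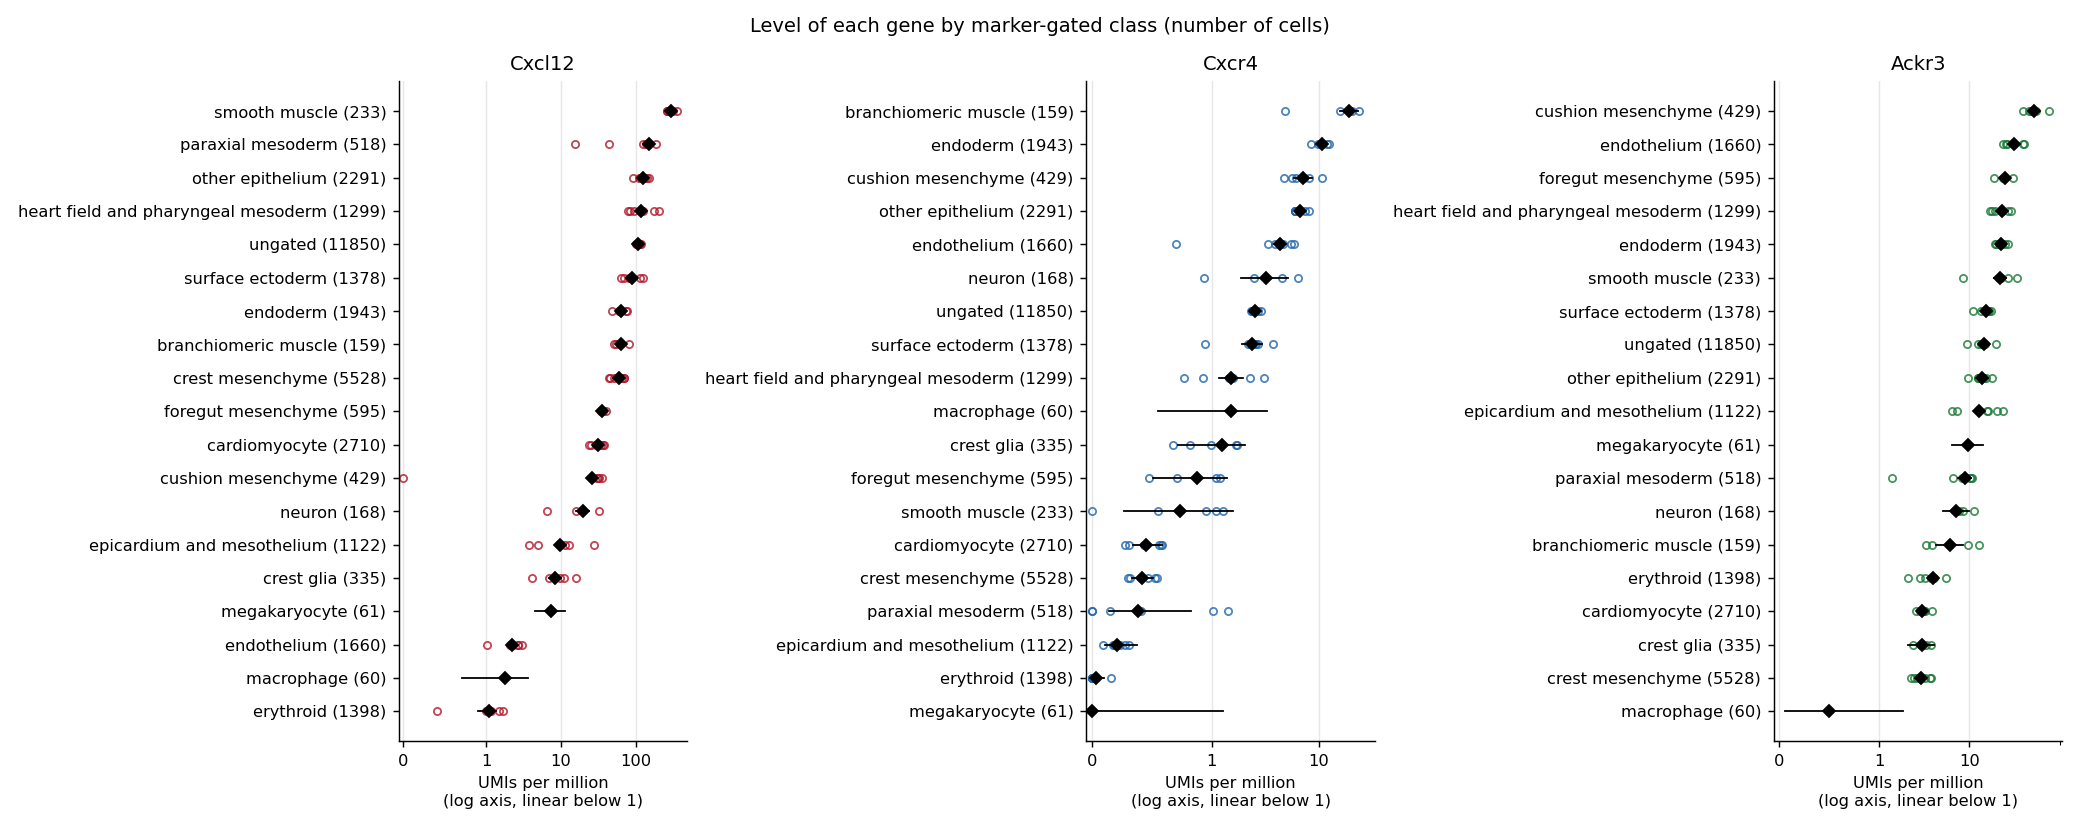
Level of Cxcl12, Cxcr4 and Ackr3 in each marker-gated class and in ungated cells (number of cells in brackets), in CPM on a log axis that is linear below 1. Diamonds are all cells together with the 95% Poisson interval and circles are libraries with at least 20 cells of the class. Smooth muscle is highest for Cxcl12 at 295, branchiomeric muscle for Cxcr4 at 19.0 and cushion mesenchyme for Ackr3 at 51.8.

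The ligand was most abundant in smooth muscle-like cells, which hold contractile and mural genes such as Acta2 and Rgs5. Cxcl12 was at 315, 276, 263, 349 and 261 CPM in the smooth muscle cells of libraries 1, 2, 4, 5 and 6, and at 295 CPM (284 to 307) in all 233 cells. Every one of these libraries lay above every library of the next class, the paraxial mesoderm at 148 CPM, and the pooled ratio was 1.997 (1.89 to 2.11). After thinning each cell to 5000 UMIs, 62.2% of smooth muscle cells still had a Cxcl12 UMI, and 90.1% did before thinning. Erythroid cells, which are not known as a source of the ligand, had one in 0.715% and 3.79%; median depths were 33186 and 64376.5 UMIs.

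Paraxial mesoderm, marked by somite genes such as Meox1 and Tcf15, was uneven between libraries. Cxcl12 stood at 15.5, 140, 44.0, 124, 188 and 137 CPM in libraries 1 to 6. The low libraries 1 and 3 had only 21 cells each, of which 18 and 16 had a UMI of Lbx1, a gene of migrating hypaxial muscle precursors. Cells without Lbx1 had 170 to 229 CPM in the 4 libraries with enough cells and 210 CPM pooled. Cells with Lbx1 had 76.2 to 90.2 CPM in the same 4 libraries and 66.8 CPM pooled, which also counts the small libraries 1 and 3. The split by Lbx1 thus separated the 4 libraries without overlap, with a pooled ratio of 3.14 (2.83 to 3.49).

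Epithelium outside the endoderm and surface gates had 126 CPM of Cxcl12, and the heart field and pharyngeal mesoderm class 118 CPM. Paraxial mesoderm was above this epithelium in only 2 of 6 libraries, and 238 of its 518 cells came from library 5. Its second place thus holds for the pooled level. In the heart field, libraries 1 and 2 were at 206 and 174 CPM and the other libraries at 78.5 to 123 CPM. Libraries 1 and 2 also differed in cell make-up. They held 1 cell each of the nested foregut mesenchyme class, against 104 to 182 in the others. The part of this in the Cxcl12 levels was not tested. Heart field cells with a Cxcl12 UMI were compared with those without, and 1.5-fold differences were counted. Of 9014 genes, 1.78% were higher and 3.34% lower. Of 9 heart field markers tested, 2 were higher, the pharyngeal T-box gene Tbx1 (ratio 2.33) and Tlx1 (1.59), and 4 were lower: Osr1, Wnt2, Tbx5 and the posterior and cardiac regulator Gata4 (0.253). Of 6 smooth muscle markers tested, 2 were higher, Rgs5 (3.66) and Tagln (1.92), and 2 were lower, Myocd (0.430) and Itga8 (0.556).

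Surface ectoderm had 88.3 CPM of Cxcl12, endoderm 63.2, branchiomeric muscle 63.0 and crest mesenchyme 58.8 CPM, and the library ranges of these neighbours overlapped. Foregut mesenchyme had 35.7 CPM, below crest mesenchyme without overlap in 4 of 4 libraries (3 to 6) that had enough of its cells. Cardiomyocytes had 31.1 CPM. Cushion mesenchyme had 25.9 CPM, with 0 in library 3 (65 cells) and 26.2 to 35.7 CPM in the other libraries. The lowest classes were endothelium at 2.22 CPM, macrophages at 1.76 CPM and erythroid cells at 1.10 CPM. Endothelial cells had 0.0324 times the Cxcl12 level of all other kept cells.

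Within cardiomyocytes, Cxcl12 followed the chamber markers. Outflow cells, gated by Tdgf1, Bambi, Sema3c, Rspo3 and Isl1, had 85.2, 110, 139, 77.7, 81.2 and 72.1 CPM in libraries 1 to 6. Ventricular cells had 11.9 to 25.9 CPM and atrial cells 0.781 to 7.77 CPM, so the 3 states did not overlap in any library. The pooled ratios were 4.32 (3.99 to 4.67) for outflow over ventricular and 19.4 (15.7 to 24.3) for outflow over atrial cells. Cxcr4 was at 0.531 CPM in outflow, 0.489 in ventricular and 0 in atrial cells, and Ackr3 at 2.43, 1.96 and 1.33 CPM in the same order. Cardiomyocytes had a median of 4 of 8 smooth muscle markers, against 2 in ungated cells; how far that bears on their Cxcl12 was not tested.

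Pharyngeal epithelium was split by pouch identity. Endoderm cells with at least 4 of 6 pouch markers had 165, 121, 165, 164, 142 and 187 CPM of Cxcl12 in libraries 1 to 6, and those with at most 1 had 9.73 to 26.2 CPM. The groups were apart in all libraries, at 9.90-fold (8.87 to 11.1) pooled. Splitting the same cells by Cxcl12 shows the same relation gene by gene and is not independent of it. In endoderm cells with a Cxcl12 UMI against those without, all 5 pouch markers tested were higher, where 3.26% of 9271 genes were higher and 2.64% lower. Among them were Fgf8, a secreted growth factor of the pouches (ratio 13.5), Pax1 (5.76), Eya1 (2.16) and Pax9 (1.92), and the sum of the list was higher in 6 of 6 libraries. The foregut regulators Foxa2 (0.339), Shh (0.341) and Nkx2-1 (0.323) and also Foxa1 were lower, while Nkx2-3, Hhex and Pax8 were higher. The cells with a UMI were deeper, with a median of 31438 against 25917 UMIs. The other epithelium had the same layout, at 151 CPM with at least 4 pouch markers and 26.3 CPM with at most 1.

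Crest mesenchyme was the largest class, with 5528 cells and 15.7% of Cxcl12 UMIs. By Hox genes, second arch cells had 54.5 to 74.9 CPM and posterior arch cells 32.6 to 60.4 CPM by library, with a pooled ratio of 1.503 (1.44 to 1.57) and overlapping ranges. Distal cells, with Hand1 and Hand2, had 14.5 CPM over 65 cells. Libraries 4 and 5, the only ones with at least 20 of these cells, were lower, at 7.35 and 2.52 CPM. Maxillary-mandibular cells had 73.1 CPM over 59 cells, most of them from library 3. Neither receptor was abundant there: Cxcr4 was at or below 0.807 CPM in each of these 4 states, and Ackr3 was at 0.807 to 9.26 CPM.

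The ungated cells held 39.1% of all Cxcl12 UMIs, at 107 CPM (99.0 to 116 by library). Their pooled Cxcl12 level was higher the more smooth muscle markers a cell showed, an order that library 4 broke from 1 to 2 markers (113 to 110 CPM) and library 5 from 3 to 4 or more (256 to 202 CPM). The markers were counted at 5000 UMIs per cell and the levels taken from all UMIs. Cxcl12 was at 75.1, 114, 155, 218 and 262 CPM in cells with 0, 1, 2, 3 and 4 or more of these markers. Ackr3 was at 11.9, 14.8, 20.1, 22.1 and 17.7 CPM over the same steps, and Cxcr4 at 3.13, 2.25, 1.32, 1.39 and 1.04 CPM. The last Cxcr4 value rests on 7 UMIs, and its interval (0.418 to 2.14) holds 1.32 and 1.39. With markers counted from all UMIs, Cxcr4 was at 4.25 CPM with 0 markers, 1.48 with 4 and 1.77 with 5. Over all kept cells, again with markers counted at 5000 UMIs, Cxcl12 did not rise at each step, at 55.5, 73.9, 80.8, 67.1 and 93.4 CPM. Ungated cells 1 marker short of the smooth muscle gate had 253 CPM (427 cells), a level between the gated class and the ungated cells as a whole. Of 6 smooth muscle markers tested, 5 were higher in ungated cells with a Cxcl12 UMI, among them Tagln (2.60) and the cofactor Myocd (2.36), beside 1.86% of 8893 genes higher and 1.32% lower. Picked after the values were seen, the forkhead genes Foxd1 (78.8 against 12.4 CPM) and Foxc1 (47.8 against 15.8 CPM) were among the genes with the largest ratios.

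**Figure D2:**
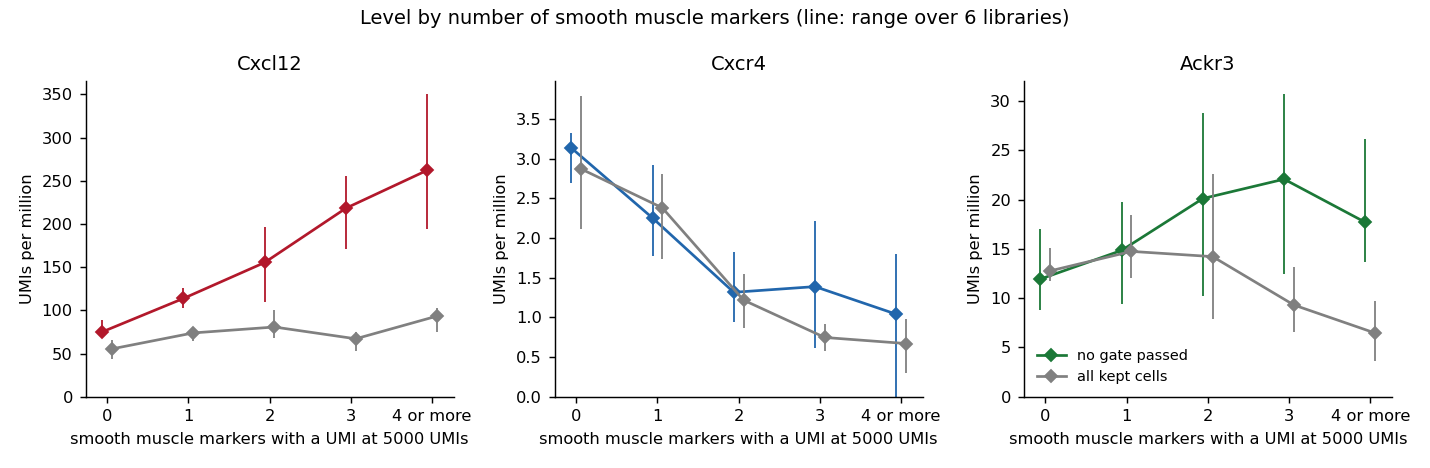
Level of the 3 genes, in CPM on linear axes from 0, by the number of smooth muscle markers with a UMI after each cell was thinned to 5000 UMIs. Coloured points are ungated cells, grey points all kept cells, and vertical lines the range over libraries with at least 20 cells (6 at each step, but 5 for ungated cells with 4 or more markers). In ungated cells Cxcl12 runs from 75.1 to 262 and Cxcr4 from 3.13 to 1.04, the last on 7 UMIs (0.418 to 2.14).

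The signalling receptor Cxcr4 was sparse, with its highest level in branchiomeric muscle-like cells, the precursors of head and neck muscle marked by Myf5 and Msc. In libraries 1, 2, 3 and 6 these cells had 15.8, 4.80, 20.2 and 23.7 CPM, and all 159 cells together 19.0 CPM (15.5 to 22.9). Library 2, with only 20 cells, was low, below every library of the endoderm, which followed at 10.7 CPM pooled. The ratio was 1.77 (1.43 to 2.17), higher in 3 of 4 libraries. This lead leaves out 85 cells that passed both the branchiomeric muscle and the paraxial mesoderm gate. Those cells had 1 Cxcr4 UMI, or 0.253 CPM (0.0064 to 1.41). With 1 marker more in each gate only 40 muscle cells remained, under the 50 required of a class, so endoderm was then the leading class. Those 40 cells were at 12.6 CPM, and the interval of their ratio to endoderm held 1 (1.15, 0.694 to 1.795). At 5000 UMIs 8.18% of branchiomeric muscle cells had a Cxcr4 UMI, against 39.6% unthinned. In erythroid cells it was 0 of 1398 thinned, which allows a share of up to 0.215% (3 counts over the number of cells, the limit used for each share of 0), and 0.215% unthinned; median depths were 33967 and 64376.5 UMIs.

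Of these muscle precursors, 134 had a Myf5 UMI, with Cxcr4 at 17.0, 23.1 and 23.7 CPM in libraries 1, 3 and 6, and the 25 without were at 6.70 CPM. At 5000 UMIs the order was turned around (ratio 0.746 against 3.10), on 2 Cxcr4-positive cells without Myf5. None of 4 muscle markers differed by 1.5-fold between cells with and without a Cxcr4 UMI, where 2.17% of 8852 genes were higher and 5.76% lower. Singled out after their values were seen, Sp5, a target of Wnt signalling (44.8 against 5.71 CPM), and Runx1 (192 against 83.4 CPM) were higher with Cxcr4. The splanchnic mesoderm genes Foxf1 (0.393 against 44.1 CPM) and Osr1 (0.393 against 28.9 CPM) were lower. Ligand and receptor were found in the same cell in 52 of 159 cells of this class (32.7%), unthinned. Cxcr4 was present in 42.3% of cells with a Cxcl12 UMI and in 30.6% of those without. The cells with a Cxcr4 UMI were deeper (median 39608 against 32163.5 UMIs), and the part of depth in these shares was not tested.

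Cells outside the gates held 25.6% of Cxcr4 UMIs at 2.52 CPM and were split in the same way. Among 9024 genes 3.03% were higher and 1.32% lower. Of 3 muscle markers tested, 2 were higher, Myf5 (6.72) and Msc (1.60), and 1 was lower. Of 9 heart field markers, the second heart field genes Isl1 (2.11), Fgf10 (3.15), Tbx1 (1.63) and Tlx1 (2.08) were higher, and Foxf1 (0.352), Osr1 (0.341) and Wnt2 (0.451) were lower. Ungated cells 1 marker short of the muscle gate had 5.31 CPM of Cxcr4 (719 cells).

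Endoderm had 8.40, 11.8, 10.7, 9.74, 10.6 and 12.4 CPM of Cxcr4 in libraries 1 to 6, a narrow spread. It was higher than cushion mesenchyme in 6 of 6 libraries, at a ratio of 1.504 (1.22 to 1.86), although the ranges overlapped. Along the pouch axis Cxcr4 was at 8.18 CPM with at least 4 pouch markers, 13.1 CPM with 2 or 3 and 9.92 CPM with at most 1. In endoderm with a Cxcr4 UMI, 0.207% of 9178 genes were higher and 1.07% lower. None of 7 endoderm markers was higher, and the thyroid and liver regulators Nkx2-1 (0.495), Hhex (0.175) and Pax8 (0.224) were lower. The other epithelium had 5.91 to 7.98 CPM of Cxcr4, above every library of the endothelium.

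Endothelium as a whole had 4.29 CPM of Cxcr4, with 5.51, 3.90, 0.698, 4.62, 3.34 and 5.88 CPM in libraries 1 to 6 and library 3 far below the rest. The level differed by vessel state. Arterial cells, with at least 5 of 7 artery markers, had 26.8, 17.0, 13.1 and 13.5 CPM in libraries 1, 2, 5 and 6. Endocardial cells, with at least 4 of 5 markers of the heart's inner lining, had 4.58, 3.01, 0, 3.22, 2.36 and 1.62 CPM. The 194 venous cells had no Cxcr4 UMI at all. No arterial library overlapped the endocardial ones, and the pooled levels were 16.1 CPM (12.2 to 20.8) and 3.08 CPM (2.41 to 3.86), a ratio of 5.23 (3.64 to 7.47). Against a venous floor of 3 UMIs (0.326 CPM), the arterial level as measured was at least 49.4-fold higher, a value that leaves out the counting error of the arterial level. Unthinned, 38 of 122 arterial cells (31.1%) had a Cxcr4 UMI, and 0 of 194 venous cells did, which allows a share of up to 1.55%. Median depth was 27885.5 UMIs in arterial and 43124.5 in venous cells, and the part of depth in the difference was not tested. Too few cells (16) met the tip cell gate for a level. The 697 endothelial cells that met none or more than 1 of these state gates had 5.20 CPM of Cxcr4 (0.764 to 8.82 by library). They held 168 of the 300 endothelial Cxcr4 UMIs, and the arterial cells held 58.

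The same cells were also split by Cxcr4 itself, which shows the same relation gene by gene and is not independent of it. At 5000 UMIs, 37 of 1660 endothelial cells had a Cxcr4 UMI, and in them 9.21% of 8863 genes were at least 1.5-fold higher and 6.76% lower. All 7 artery genes were higher: the gap junction genes Gja5 (ratio 6.65) and Gja4 (3.07), the Notch target Hey1 (5.03), the Notch ligand Dll4 (3.50), the netrin receptor Unc5b (3.95), Sox17 (3.00) and Efnb2 (1.999). Of 6 vein genes 5 were lower, led by the venous regulator Nr2f2 (0.0928) and the apelin receptor Aplnr (0.0967), and Ephb4 was at 0.819. The tip cell gene Esm1 was higher (5.86), as were the other 2 tip genes tested, and the endocardium list was mixed, with 2 higher and 1 lower of 5. When cells were split by any unthinned UMI (169 with, 1491 without; 6.52% of genes higher and 2.80% lower), 7 of 7 artery genes were higher and 4 of 6 vein genes lower. The summed artery list was then higher in 4 of 4 libraries and the vein list in 0 of 4. Genes of smooth muscle and of cushion cells were also higher at the thinned split: Tagln at 184 against 18.8 CPM, Acta2 at 86.6 against 11.4 CPM and Sox9 at 65.6 against 9.19 CPM, named after their values were seen. The part of such transcripts in the result was not tested.

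**Figure D3:**
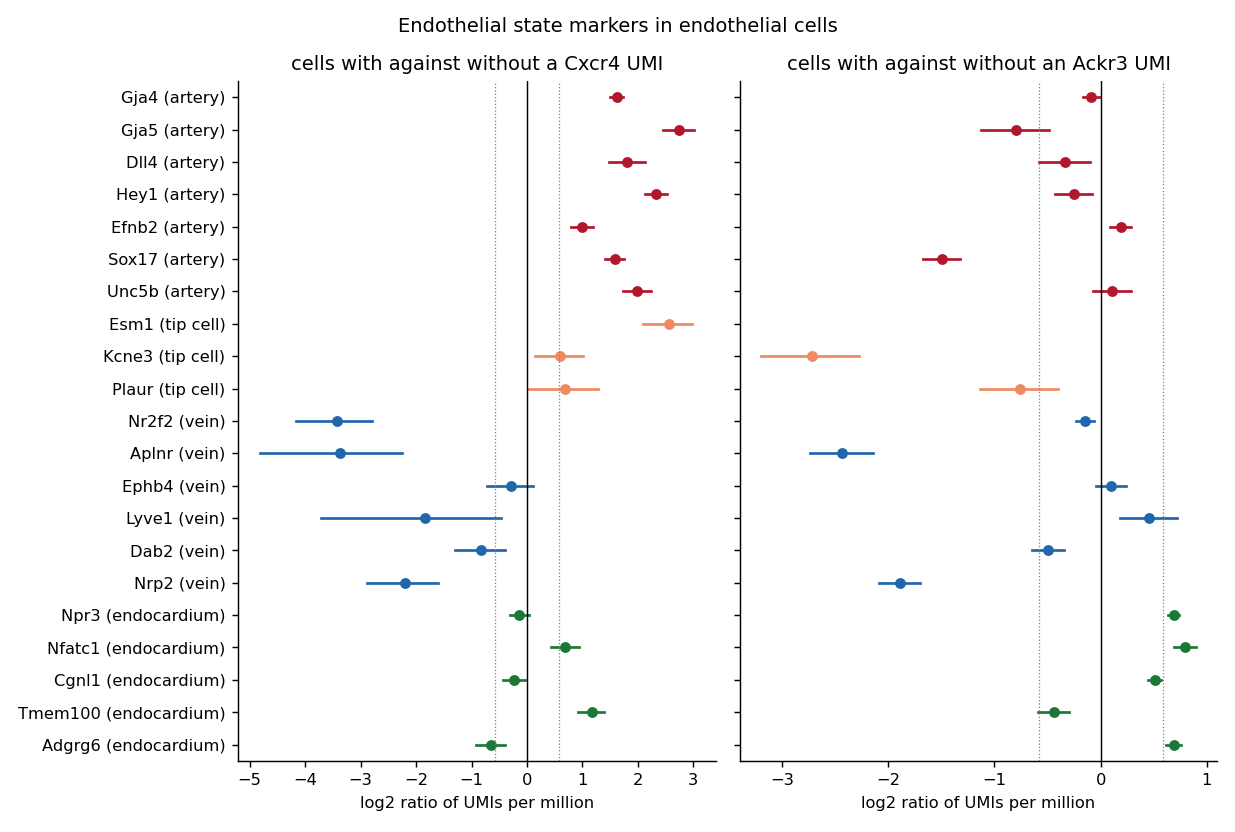
Log2 ratio of CPM, with its counting interval, of endothelial state markers in endothelial cells with against without a UMI of Cxcr4 (left) or Ackr3 (right) at 5000 UMIs per cell; dotted lines mark 1.5-fold. All 7 artery genes lie right of the line for Cxcr4, and 3 of 5 endocardium genes do for Ackr3.

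Cushion mesenchyme, the valve precursor tissue marked by Hapln1, Postn, Tbx20 and Sox9, had 8.14, 6.15, 4.75, 5.63, 7.25 and 10.54 CPM of Cxcr4. The 79 cushion cells with a Cxcr4 UMI were compared with the 350 without, and only 1 library had enough cells to be compared by itself. In the cells with a UMI, 2.67% of 8989 genes were higher and 3.26% lower. Of 5 endothelial markers 3 were higher, Cdh5 (2.41), Tek (1.66) and Tie1 (1.51). Of 8 cushion gate markers 1 was higher, Nfatc1 (1.72), which is also on the endocardium list, and 1 was lower. The median ratio of the cushion list was 0.985. Of 6 smooth muscle markers 5 were lower, with Acta2 at 26.9 against 337 CPM. The flow-responsive factor Klf2, singled out afterwards, was at 278 against 86.6 CPM.

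Other classes had little Cxcr4: 3.20 CPM in neurons, 2.39 in surface ectoderm and 1.53 in heart field cells. Both classes with the highest pooled level of the ligand had less, with 0.732 CPM in smooth muscle and 0.379 CPM in paraxial mesoderm. In paraxial mesoderm 0 of 518 cells had a UMI at 5000 UMIs (up to 0.579%). Megakaryocytes had 0 UMIs over 61 cells, where 3 UMIs would be 1.04 CPM. Macrophages, a cell type known to bear Cxcr4 in the adult, had 1.51 CPM (0.554 to 3.29) over 60 cells.

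The scavenger Ackr3 was highest in cushion mesenchyme, at 39.7, 55.0, 76.8, 49.4, 48.0 and 45.5 CPM in libraries 1 to 6 and 51.8 CPM (48.3 to 55.6) over 429 cells. Endothelium followed at 39.3, 31.2, 39.9, 25.9, 25.5 and 23.4 CPM, or 31.0 CPM over 1660 cells. Cushion cells were higher in 6 of 6 libraries with a ratio of 1.67 (1.54 to 1.82), but the ranges touched, since library 3 of the endothelium (39.9 CPM) was above library 1 of the cushion cells (39.7 CPM). At 5000 UMIs 17.9% of cushion and 14.2% of endothelial cells had an Ackr3 UMI, and 62.7% and 42.7% unthinned. Macrophages had it in 0 of 60 cells thinned, which allows a share of up to 5%, and in 3.33% unthinned. Their median depth was 65930.5 UMIs, against 34287 in cushion and 37113.5 in endothelial cells. Erythroid cells had 3.99 CPM, with a share of 2.22% thinned and 19.3% unthinned.

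The 2 highest classes met in the endocardium and in cells between the gates. Endocardial cells had 49.1, 48.4, 59.9, 59.1, 60.2 and 53.6 CPM of Ackr3, arterial cells 7.99 to 15.5 CPM and venous cells 1.66 to 11.6 CPM. The endocardial libraries lay above all of the others. Endocardium over artery was 4.53 (3.33 to 6.32), and 2.59 with each cell thinned to 5000 UMIs. Over these same states Cxcr4 was highest in artery and Ackr3 in endocardium. The 267 cells that passed both the endothelium and the cushion gate had 49.99 CPM of Ackr3, with 5.36 CPM of Cxcr4 and 3.74 CPM of Cxcl12. In endothelial cells with an Ackr3 UMI at 5000 UMIs (236 of 1660; 2.65% of 8669 genes higher and 2.34% lower), 3 of 5 endocardium genes were higher: Npr3 (1.61), Nfatc1 (1.73) and Adgrg6 (1.61). Their list sum was higher in 5 of 5 libraries. Of 7 artery genes, Gja5 (0.574) and Sox17 (0.354) were lower and none was higher. Of 6 vein genes, Aplnr (0.185) and Nrp2 (0.270) were lower, and the tip gene Kcne3 (0.152) was lower too. When split by any unthinned UMI (4.44% of genes higher and 3.21% lower), 4 of 5 endocardium genes were higher, and the vein list gene Lyve1 was also higher (3.46).

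**Figure D4:**
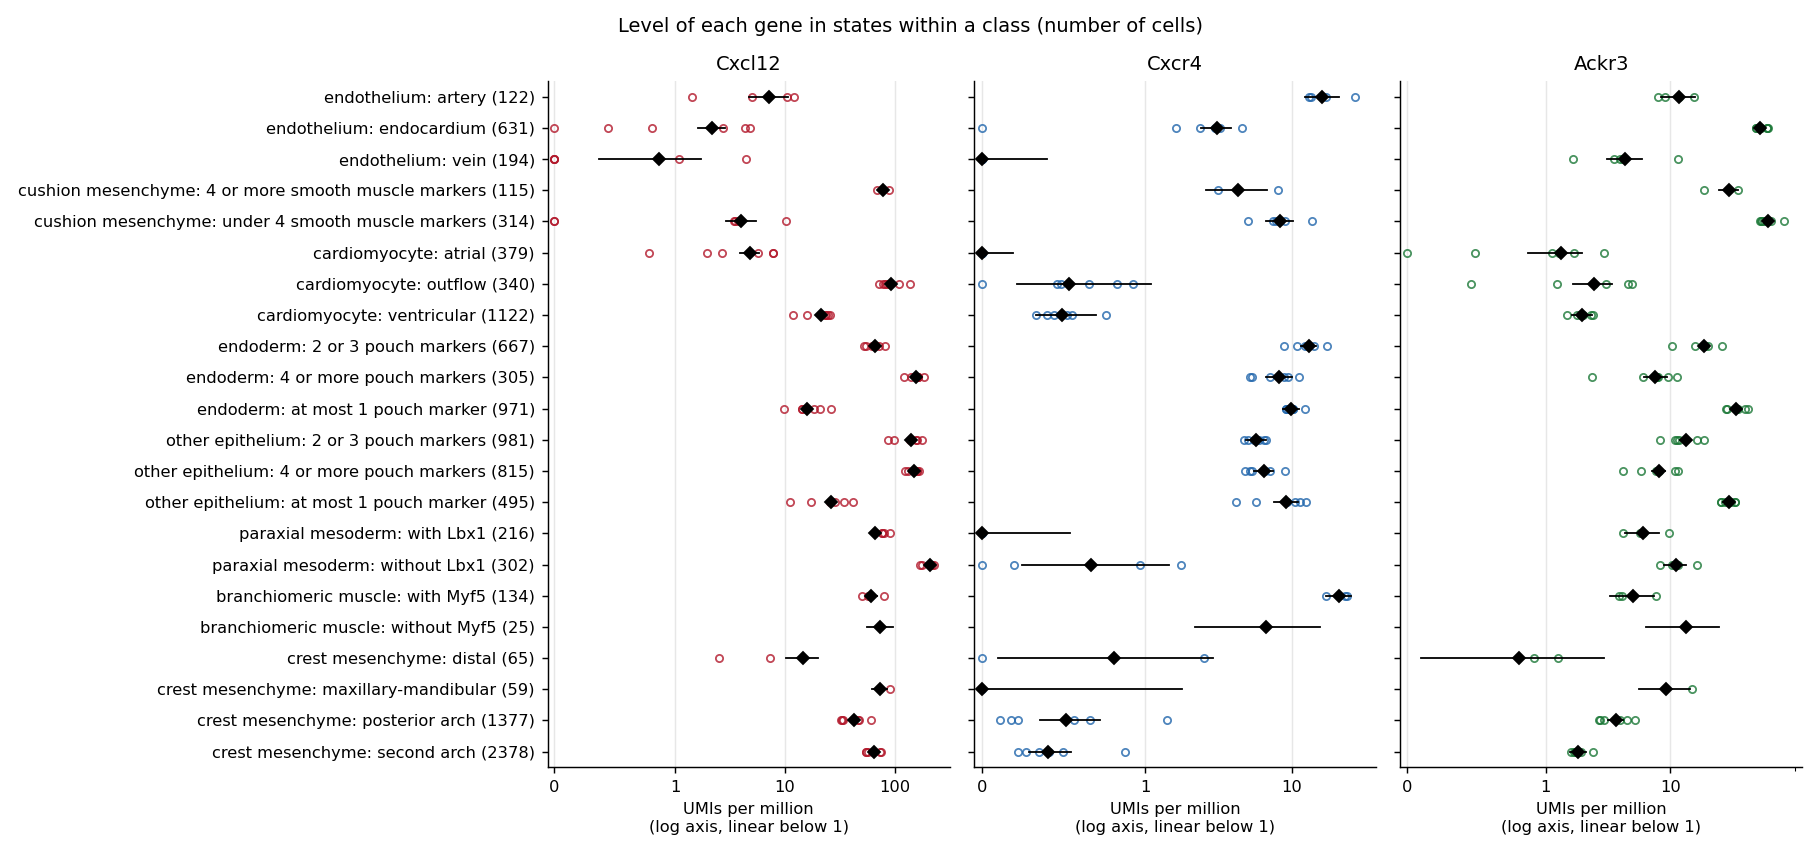
Level of each gene in states within a class (number of cells in brackets), in CPM on a log axis that is linear below 1; diamonds are all cells with the 95% Poisson interval and circles are libraries with at least 20 cells. Cxcr4 is at 16.1 in arterial and 0 in venous endothelium, while Ackr3 is at 52.7 in endocardium and 11.6 in artery.

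Within cushion mesenchyme the scavenger and the ligand split by smooth muscle genes. The 314 cells with under 4 smooth muscle markers had 52.2 to 81.9 CPM of Ackr3 by library and 61.0 CPM pooled, with 8.30 CPM of Cxcr4 and 4.01 CPM of Cxcl12. The 115 cells with at least 4 had 29.7 CPM of Ackr3, 4.30 CPM of Cxcr4 and 79.0 CPM of Cxcl12. The Cxcl12 ratio was 19.7 (14.3 to 27.7), and 40.6 without library 1, whose cells of few smooth muscle markers had the highest Cxcl12 at 10.2 CPM. It was 11.96 where cells of more than 1 gate were given to the fuller gate. The Ackr3 ratio in the other direction was 2.06 (1.70 to 2.50). Only 2 libraries had 20 cells with at least 4 markers, so the spread is known for few libraries. Splits by a UMI of these genes are not independent of the marker split above. Cells with a Cxcl12 UMI had Acta2 at 1322 against 91.3 CPM. Of 8 cushion markers 4 were lower, among them Hapln1 (0.317) and Msx1 (0.278), and 0 higher, beside 9.96% of 9198 genes higher and 6.65% lower. Cells with an Ackr3 UMI had Acta2 at 89.3 against 609 CPM. Of 8 cushion markers 1 was higher, Msx1 (1.73), and 0 lower, beside 1.61% of 8954 genes higher and 2.61% lower.

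Foregut mesenchyme (25.0 CPM), heart field (23.0), endoderm (22.7) and smooth muscle (21.8) came next for Ackr3, and their library ranges overlapped. In the heart field, cells with an Ackr3 UMI were compared with those without. Of 9 heart field markers tested, Gata4 (2.84) was higher and Tbx1 (0.605), Fgf10 (0.460) and Tlx1 (0.428) were lower. The split by Cxcl12 had Gata4 lower and Tbx1 and Tlx1 higher, but a cell can have UMIs of both genes. Of 6 epicardial markers tested, Tbx18 (2.70) and Sema3d (2.48) were also higher and none was lower, where 2.05% of 8982 genes were higher and 1.06% lower. The 91 cells that passed both the epicardium and the heart field gate had 36.5 CPM of Ackr3. In epicardium alone the libraries ranged widely, at 6.48, 7.32, 15.7, 23.8, 20.2 and 16.1 CPM, with libraries 1 and 2 lowest.

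In endoderm the scavenger lay at the other end of the pouch axis from the ligand. Cells with at most 1 pouch marker had 28.1 to 41.9 CPM of Ackr3 and those with at least 4 had 2.37 to 11.4 CPM, without overlap, at a pooled ratio of 4.41 (3.54 to 5.54). The split by Ackr3 itself is again not independent of this grouping. With an Ackr3 UMI, 3 of 5 pouch markers were lower, among them Pax1 (0.442) and Fgf8 (0.287), and none was higher. Of 7 endoderm markers 1 was higher, Foxa2 (2.19), and 3 were lower, Nkx2-1 (0.391), Nkx2-3 (0.257) and Hhex (0.645), beside 1.97% of 9227 genes higher and 2.90% lower. Chosen after their values were seen, the posterior patterning gene Hoxc4 (51.7 against 9.70 CPM) and the proteoglycan gene Dcn (194 against 31.8 CPM) were higher. The other epithelium repeated the order, with 29.3 CPM at most 1 pouch marker and 8.06 CPM at 4 or more.

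Crest mesenchyme (2.92 CPM), crest glia (2.97) and cardiomyocytes (3.02) had the least Ackr3 of the classes other than macrophages at 0.503 CPM. Unthinned, 9.04%, 10.1% and 9.15% of their cells had an Ackr3 UMI, beside 3.33% of macrophages and 19.3% of erythroid cells. Erythroid cells, at 3.99 CPM, were above cardiomyocytes in 3 of 6 libraries.

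Receptor and scavenger were also counted in the same cells. Both Cxcr4 and Ackr3 had a UMI in 53 of 429 cushion cells (12.4%), 158 of 1943 endoderm cells (8.13%) and 81 of 1660 endothelial cells (4.88%), and in 3, 11 and 8 cells at 5000 UMIs. Ackr3 was present in 67.1% of Cxcr4-positive and 61.7% of Cxcr4-negative cushion cells, in 47.9% and 42.1% of endothelial cells, and in 34.3% and 26.8% of endoderm cells. In the other epithelium with at most 1 pouch marker the shares were 60.8% and 27.8%. Surface ectoderm had the opposite order, with 8.57% and 26.8%. The endoderm cells with a Cxcr4 UMI were deeper (median 31996 against 26610 UMIs), and the part of depth in these shares was not tested. Within smooth muscle, 63 of 233 cells (27.0%) had UMIs of both the ligand and the scavenger, and Ackr3 was present in 30.0% of cells with a Cxcl12 UMI and in 43.5% of those without.

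Of 31 further genes around this pathway, 30 were in the matrix, and they cover other chemokine ligands and receptors, decoy receptors, G proteins, arrestins and kinases. The count of those at least 2-fold above or below all other kept cells was taken in the class where each of the 3 genes was highest. Endothelium and endoderm, where none of the 3 was highest, were added to the planned classes. In endothelium 5 of 17 tested were higher and 2 lower, beside 9.71% and 9.76% of 9405 genes. The higher ones were Gpr182, another scavenger of Cxcl12 (58.5 CPM, ratio 42.9), Calcrl (19.3) and Ramp2 (30.2), which form a receptor for adrenomedullin, the peptidase Dpp4 (8.80), which cuts the ligand, and the G protein Gnai2 (2.93). Rgs5 (0.122) and Vegfa (0.337) were lower. In cushion mesenchyme 3 of 14 were higher, Ramp2 (5.09), Calcrl (3.63) and Rgs5 (2.49), and 0 lower, beside 8.14% and 6.37% of 9382 genes. In endoderm 2 of 16 were higher, Ramp3 (5.80) and the kinase Grk3 (2.18), and 3 lower, beside 7.16% and 6.03% of 9570 genes. In branchiomeric muscle Rgs16 (4.98), a brake on G-protein signalling, was higher and Rgs5 (0.113) lower of 16, beside 3.85% and 7.29% of 9246 genes. In smooth muscle Rgs5 (12.1), itself a gate marker, was higher and Calcrl (0.247) lower of 14, beside 4.82% and 3.35% of 9262 genes. The median ratios of the list were 1.46, 1.32, 0.965, 1.00 and 1.20 in these classes, against 0.986, 1.03, 1.07, 1.05 and 1.06 over all genes tested.

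Adm, whose peptide Ackr3 is also known to take up, was highest in cardiomyocytes at 23.7 CPM, a class near the bottom for Ackr3. Cxcl14, a related chemokine, was highest in surface ectoderm at 66.1 CPM. The decoy receptor gene Ackr1 was highest in neurons at 13.0 CPM, and Ackr2 and Ackr4 were below 1 CPM in all 18 classes.

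Across the 18 classes the 3 genes followed each other no more closely than many other genes, with Pearson's r of log2(CPM + 1) at 0.22 for Cxcl12 and Cxcr4, 0.37 for Cxcl12 and Ackr3 and 0.33 for Cxcr4 and Ackr3. The median r with all genes compared was 0.36 for Cxcl12, 0.25 for Cxcr4 and 0.23 for Ackr3. The classes share libraries, so these are descriptions. Of 11995 genes, Ptges (0.93), Nfatc4 (0.90), A630012P03Rik (0.88), Gpc3 (0.88) and Fzd7 (0.88) were most like Cxcl12. Tgfa (0.84), Tbc1d10a (0.81), Foxl2 (0.79), Cpne4 (0.78) and Ezh1 (0.77) were most like Cxcr4, and Kdelr3 (0.86), Nrxn3 (0.83), Zfp976 (0.83), Tmem64 (0.82) and Uaca (0.82) most like Ackr3. Without the class where each was highest, 2, 1 and 4 of these 5 stayed in the list.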

How the data were processed

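The deposited matrix holds raw UMI counts per gene and cell, made by the authors; its header names Cell Ranger 5.0.0, and the submitters' processing notes add mm10, CASAVA 1.8 and Seurat 4, and the sample descriptions also name a chromatin assay, which these counts are not. Total depth was 200462921 to 248426458 UMIs per library. Barcodes with at least 2500 genes and at most 10% mitochondrial UMIs were kept. Cells entered a class by the number of its fixed markers with at least 1 UMI (2 of 8 for endoderm within epithelium, up to 7 of 9 for cardiomyocytes). Cells passing more than 1 gate were left out, which was the treatment of doublets; no doublet caller was run. Where gates nest, foregut mesenchyme went before heart field and cardiomyocyte before smooth muscle. Many cells lay near a cut: 3811 were 1 marker short of the heart field gate, 1542 of smooth muscle and 1322 of branchiomeric muscle. Marker numbers were set from marker histograms; the nesting and the states within classes were set later.

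UMIs were summed over cells and scaled to CPM. Poisson, ratio and Clopper-Pearson intervals (95%) cover counting error only; a share of 0 is given the limit of 3 counts instead. Shares used cells thinned to 5000 UMIs (4 shallower cells left out). Within classes, genes of at least 10 CPM on 1 side were compared between cells with and without a UMI. The split used all UMIs except where 5000 is named, and the levels on both sides came from all UMIs in either case. Where the same cells had been grouped by the same markers, such a split is not independent of that grouping. The 2-fold class ratios were tried on simulated counts for endothelium and branchiomeric muscle, with counting error only. The 1.5-fold comparisons within classes were not simulated, nor was variation between cells or libraries. The 3 genes, the marker lists and the pathway list were chosen with earlier results of these data known. Named are the 3 genes, the pathway genes, the markers, the 5 genes most like each, and genes said to be picked later. Python 3.11.15, numpy 2.4.6, scipy 1.17.1, pandas 2.3.3 and matplotlib 3.10.9 were used. Some genes of the lists are not reported here by name.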

Additional observations from a re-analysis of the deposited data

Results flagged for a closer look

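The 17400 barcodes that failed the cell filter (median 2013.5 UMIs) were used in no comparison, and all 3 genes were counted there above the limit that a count of 0 allows (0.0613 CPM). Cxcl12 was at 49.6 CPM (47.7 to 51.7) against 64.8 CPM in kept cells, Cxcr4 at 1.86 CPM (1.496 to 2.28) against 2.33 CPM, and Ackr3 at 7.64 CPM (6.88 to 8.45) against 12.7 CPM. By library, Ackr3 ran from 4.74 CPM in library 1 to 14.4 CPM in library 6 and Cxcr4 from 0.855 CPM in library 1 to 4.77 CPM in library 5, while Cxcl12 stayed between 46.9 and 56.5 CPM.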

How the results depend on the processing

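No paired analysis was possible because the libraries are not paired with samples, and for the same reason the planned STZ against Veh tests (edgeR, DESeq2, replicate block) were not run. Of 250 alternative values, 201 stayed inside the counting interval of the main value, 47 moved outside it and 2 changed direction. List medians and list overlaps were held to a limit of 1.5-fold instead. These counts do not measure the spread between libraries. The leading class was the same in 15 of 15 settings for Cxcl12 and Ackr3 and in 14 of 15 for Cxcr4. For Cxcr4, endoderm led with 1 marker more per gate, as branchiomeric muscle then had under 50 cells. With 1 marker more per gate, Cxcl12 in smooth muscle was 277 CPM and 2.42 times paraxial mesoderm, Cxcr4 in branchiomeric muscle 12.6 CPM and 1.15 times endoderm, and Cxcl12 in second over posterior arch 1.39. With cells of more than 1 gate given to the fuller gate, Cxcl12 in smooth muscle was 253 CPM, and Ackr3 in cushion mesenchyme 43.6 CPM and 1.30 times endothelium. Without the 5% of cells with the most UMIs, the Ackr3 ratio was 1.54 and the arch ratio 1.60; the mean of library values gave a Cxcl12 ratio of 2.71, and leaving out shared barcodes an Ackr3 ratio of 1.54. At 5000 UMIs per cell the Cxcl12 ratio was 1.88, Ackr3 in cushion mesenchyme 44.8 CPM and 1.34 times endothelium, Ackr3 in endocardium over artery 2.59 and the arch ratio 1.63. At 10000 UMIs the shares with a UMI were 80.7% (Cxcl12, smooth muscle), 15.7% (Cxcr4, branchiomeric muscle) and 35.0% (Ackr3, cushion mesenchyme), as more UMIs per cell give more detection. Leaving out 1 library gave 280 to 303 CPM and a ratio of 1.89 to 2.41 for Cxcl12, 17.5 to 20.7 CPM and 1.68 to 1.96 for Cxcr4, 46.8 to 56.3 CPM and 1.55 to 1.98 for Ackr3, 4.83 to 6.07 for Cxcr4 in artery over endocardium, 4.13 to 5.12 for Ackr3 in endocardium over artery and 1.44 to 1.70 for the arch ratio. The directions that changed were Cxcr4 with over without Myf5 (0.746 at 5000 UMIs) and the median ratio of the endocardium list by Cxcr4, 0.910 at 5000 UMIs and 1.11 with all UMIs, a split added after seeing the data. Other causes were not tested. Cxcr4 levels rest on few UMIs, and a class with 0 is limited by depth.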
